A study of Mus musculus with 29 samples.

Results

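The genes described here are the 5 mouse Notch ligands, Dll1, Dll3, Dll4, Jag1 and Jag2, and the 3 fringe glycosyltransferases, Mfng, Lfng and Rfng, taken from the expression table by their symbols. They are 8 of its 25239 genes, and all 8 were among the 15719 genes detected well enough to be tested. The study asked how the growth factors in the medium and the chromatin protein Hmgb2 affect the conversion of cultured mouse cortical astrocytes into neurons by the proneural factor Neurog2. RNA was sequenced from 29 libraries in 8 groups, and the values are regularized logarithms (rlog), which lie on a log2 scale and are adjusted for library size.

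All cells came from wild-type C57BL/6J mice of postnatal days 5 to 6 (the series' design text gives a somewhat later range of ages), were expanded for 10 days in serum-containing medium, transduced with retroviruses and sorted by fluorescence 48 h later. The labels name the tissue as cortical grey matter, whereas the methods of the study speak of white matter. Cells grew with EGF and bFGF at 10 ng/ml each (EGF+bFGF) or with 10 ng/ml bFGF alone (bFGF). In EGF+bFGF there were 5 libraries with the control virus, which carries a fluorescent reporter without a factor, 3 with Neurog2, 4 with Hmgb2 and 3 with both viruses (Neurog2+Hmgb2). In bFGF there were 3 libraries with the control virus, 4 with Neurog2, 4 with Hmgb2 and 3 with both. The viruses are of a kind that enters dividing cells and drives its factor from a strong ubiquitous promoter, so every group describes the dividing, transduced fraction of its culture. Nothing in the labels says which libraries came from separate preparations, and the p-values measure only the spread between these libraries.

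Notch is a receptor that is cut and moves to the nucleus when a ligand on a neighboring cell binds it, where it works with the DNA-binding protein Rbpj to switch on Hes and Hey genes. In the developing brain, cells that start to become neurons raise Delta-like ligands under proneural factors such as Neurog2 and so keep their neighbors in the progenitor state, a process called lateral inhibition. Fringe enzymes add a sugar to the Notch receptor in the Golgi and thereby change how it responds to Delta-like and to Jagged ligands.

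Neurog2 binds DNA at E-boxes, which have the letters CANNTG. This pattern matches on both strands at once, even where the middle letters of a site differ between them. Rbpj binds at TGGGAA, searched here as TGGGAA or TTCCCA. Up to 250 bases upstream of annotated starts are printed for a Delta-like gene that holds E-boxes there (Dll1), for one that holds none (Dll4) and for the fringe gene known as a target of Notch in the somites of the mouse (Lfng), and short sites are given for Dll3, whose window lies within its first exon in another annotation. Sequences are from RefSeq on GRCm38.p6, read 5′ to 3′ on the strand of the gene, with E-boxes and TGGGAA motifs in capitals. The Dll1 window is chr17:15376933-15377182, the Dll3 sites are chr7:28301996-28302025 and chr7:28301786-28301804, the Dll4 window is chr2:119325534-119325783 and the Lfng window is chr5:140607091-140607319.
Dll1: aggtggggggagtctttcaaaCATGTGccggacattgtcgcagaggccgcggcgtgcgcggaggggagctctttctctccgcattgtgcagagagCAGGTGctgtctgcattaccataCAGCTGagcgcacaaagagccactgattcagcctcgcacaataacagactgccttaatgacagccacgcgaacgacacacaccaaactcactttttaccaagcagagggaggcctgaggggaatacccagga
Dll3 site: tagagaggaatgCACCTGtatttccgttct
Dll3 site: tccggcatccagCAGCTGc
Dll4: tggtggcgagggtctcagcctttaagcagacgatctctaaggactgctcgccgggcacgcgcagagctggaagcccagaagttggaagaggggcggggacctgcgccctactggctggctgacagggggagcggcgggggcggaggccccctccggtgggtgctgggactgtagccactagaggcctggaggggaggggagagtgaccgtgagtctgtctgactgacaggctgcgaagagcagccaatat
Lfng: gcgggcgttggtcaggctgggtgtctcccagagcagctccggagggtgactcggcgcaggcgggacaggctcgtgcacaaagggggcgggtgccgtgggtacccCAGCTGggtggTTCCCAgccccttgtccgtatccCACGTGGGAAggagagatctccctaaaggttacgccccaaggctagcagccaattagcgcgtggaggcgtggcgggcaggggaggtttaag

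The Dll1 window held 3 E-boxes (1 was in the window of a second annotated start), the Dll3 window 2, the Lfng window 2 and the Dll4 window 0. Lfng was the member with TGGGAA motifs, 2 of them, of which the second overlaps an E-box in the run CACGTGGGAA. A window was found for 7 of the 8 members, and none of these held CAGATG (or its reverse complement) or CATATG, forms that proneural factors are known to bind. Such matches are frequent by letter content alone: of 32851 windows of 250 bases, 66.2% held an E-box, 14.4% CAGATG, 3.46% CATATG, 13.0% CAGCTG and 21.6% TGGGAA. They describe the letters in these windows and say nothing of binding.

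The retroviral cDNAs themselves check the labels. Neurog2 had rlog values of 12.36 to 14.29 in the 13 libraries that received its virus and 7.74 to 8.22 in the 8 control libraries. In the 8 libraries labelled Hmgb2 without Neurog2 it lay between these, at 9.89, 11.47, 10.93 and 10.30 in EGF+bFGF and at 9.35, 11.02, 10.80 and 9.86 in bFGF, above every control library. The difference from control was 2.66 ± 0.35 (SE, limma adjusted p = 0.000551) in EGF+bFGF and 2.17 ± 0.39 (adjusted p = 0.0961) in bFGF. What gave these reads was not tested. Each comparison that takes the Hmgb2 libraries as the side without Neurog2 therefore rests on libraries with some Neurog2 sequence. Hmgb2 was 2.22 ± 0.24 higher than in control in the EGF+bFGF libraries given its virus alone and 2.15 ± 0.27 higher in those in bFGF (limma adjusted p = 3.87e-05 and 0.000706).

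The 10 astrocyte markers were detected in all libraries, from S100b at 4.03 to 7.03 up to Gfap at 13.04 to 16.24. Markers of other cell types were not absent. The 5 fibroblast markers had group means of 10.20 to 12.28, as high as the 10.35 to 11.26 of the astrocyte list, with Col1a1 at 11.79 to 15.96. The 6 markers of oligodendrocyte precursors had 7.99 to 8.80, and among 7 mural markers Acta2 was at 11.98 to 15.24 while Kcnj8 and Abcc9 lay below the detection limit, set at a mean rlog of 1. The libraries thus held transcripts of these lists beside those of the labelled astrocytes. The astrocyte mean ranged from 9.45 to 11.43, and 7 libraries lay at or below 10.06 while the other 22 lay at 10.50 or above. The mean of 12 microglia markers ranged from 4.09 to 8.51, and all 12 were on average higher with the Neurog2 virus (median difference 1.24). Of the 12, P2ry12 and Tyrobp passed the test (limma), where 8.54% of all genes tested were higher and 6.74% lower. The 9 neuron markers had group means of 5.85 to 6.16 without the Neurog2 virus and 6.78 to 7.78 with it. In the same test of the Neurog2 virus, 6 of the 9 were higher and 1 was lower, Stmn2 (−0.72, limma adjusted p = 0.0151). Of the 9 endothelial markers, Cldn5, Erg and Emcn also lay below the detection limit, and the mean of the list was 2.35 to 2.82 in the groups with the Neurog2 virus and 3.00 to 3.14 in those without. In sorted bulk cells, more cells of a type and more RNA per cell cannot be told apart.

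The Delta-like ligands and Mfng formed the part of the set that was higher with Neurog2. Compared with the control virus, 4 of the 8 members were higher in Neurog2 cells and 0 were lower at an adjusted p under 0.05 (limma, adjusted over all genes tested) in EGF+bFGF, where 1.35% of all genes tested were higher and 0.229% lower, and again 4 and 0 in bFGF, where 0.337% were higher and 0.0127% lower. In both cultures these were Dll1, Dll3, Dll4 and Mfng, by 1.63 to 3.11 on the log2 scale. In bFGF the call of Dll4 alone held under every alternative. With only the bFGF control and Neurog2 libraries in the fit, Dll1, Dll3 and Mfng did not pass (limma adjusted p = 0.497, 0.156 and 0.271), without the filter Dll1 and Dll3 did not (0.0813 and 0.0545), and with a replicate block within each culture Dll3 and Mfng did not (0.0765 and 0.0559). Jag1, Jag2, Lfng and Rfng did not pass the test in either culture. The libraries of Neurog2 and control cells did not overlap for 5 members in each culture, these 4 and Rfng, against 6.65% of genes tested without overlap and higher in EGF+bFGF and 4.22% in bFGF.

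**Figure D1:**
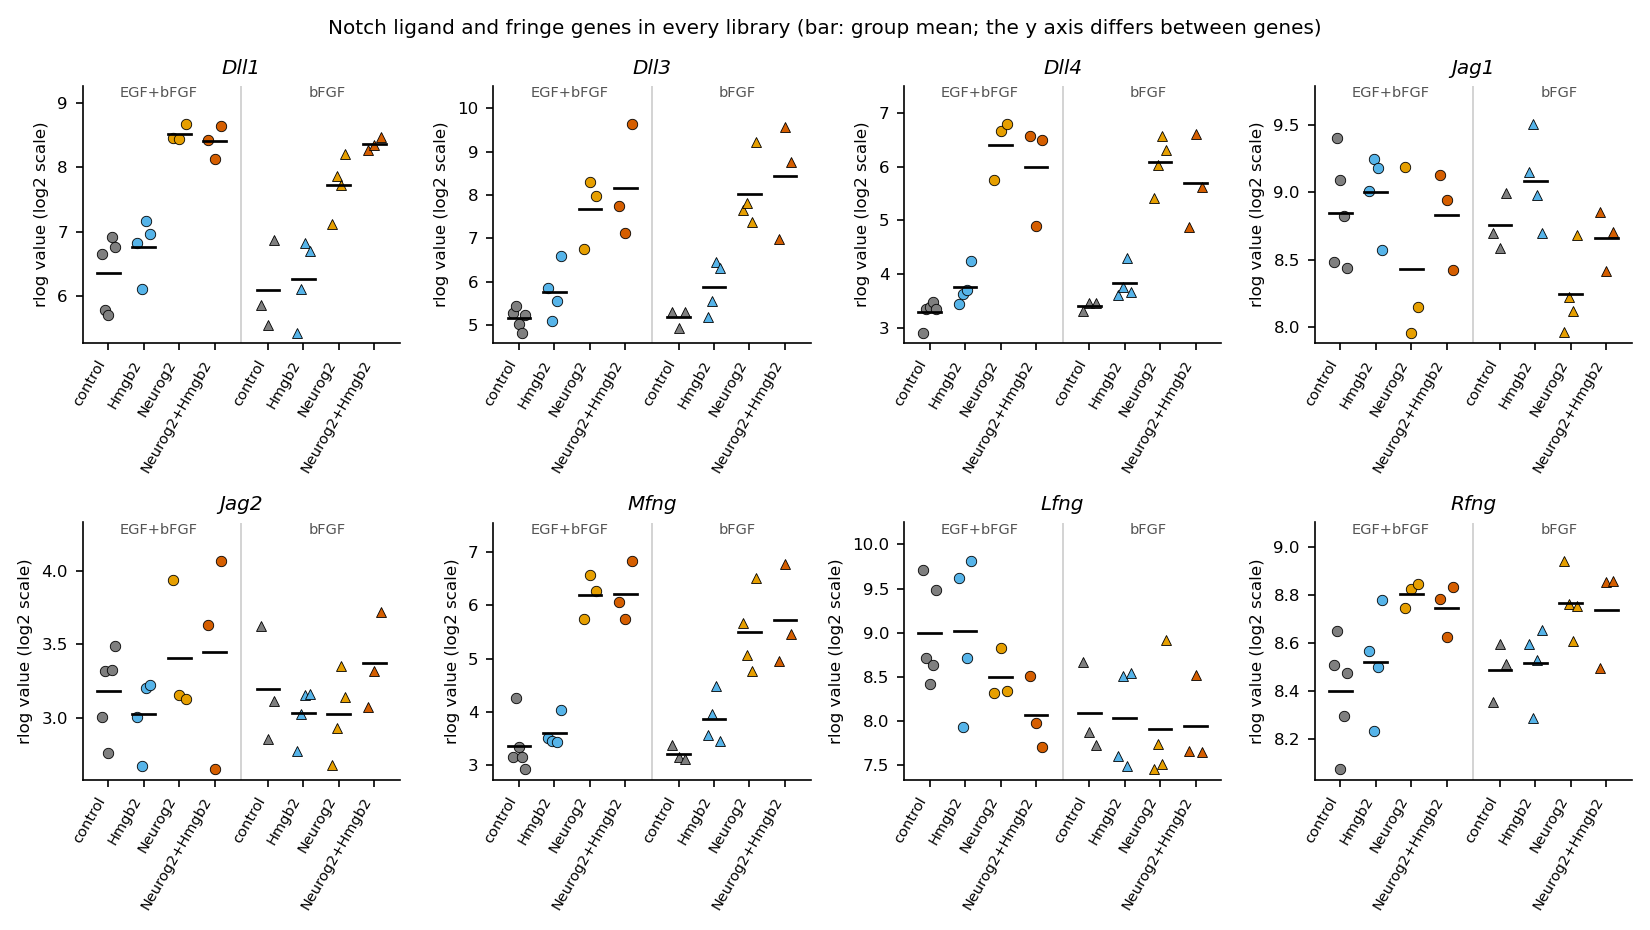
Rlog value (log2 scale, y axis, with its own range for each gene) of the 8 genes in every library, by virus and by culture (circles EGF+bFGF, triangles bFGF); bars are group means. For Dll3, Dll4 and Mfng all 13 libraries with the Neurog2 virus lie above all 16 without it. For Dll1 this holds for 12 of the 13 and for Rfng for 7, and Jag1, Jag2 and Lfng also overlap.

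Dll1, an activating ligand of neuronal precursors, lies on chr17:15367354-15376872 on the minus strand (GRCm38). In EGF+bFGF its rlog values were 6.66, 5.79, 5.71, 6.92 and 6.76 in control cells and 8.46, 8.43 and 8.67 in Neurog2 cells. In bFGF they were 5.87, 5.56 and 6.88 in control cells and 7.13, 7.86, 7.73 and 8.21 in Neurog2 cells. The groups did not overlap in either culture, but the lowest Neurog2 library in bFGF was only slightly above the highest control. Dll1 was 2.16 ± 0.34 higher in EGF+bFGF (SE, limma adjusted p = 0.000711) and 1.63 ± 0.36 higher in bFGF (adjusted p = 0.0394). The bFGF call was the least firm of the 4: it was lost when any 1 of 9 libraries was left out, with adjusted p-values of 0.0502 to 0.338. The highest of these came without control replicate 2 (1.36), followed by control replicate 1 (1.51, adjusted p = 0.236), Neurog2 replicate 4 (1.47, 0.154) and Neurog2 replicate 2 (1.59, 0.128), all of bFGF. The other 5 were EGF+bFGF control replicate 1, EGF+bFGF Neurog2 replicate 2, EGF+bFGF Hmgb2 replicate 1 and bFGF Neurog2+Hmgb2 replicates 2 and 3, without which Dll1 kept its difference of 1.63 with an adjusted p of 0.0502 to 0.0532. Without the 3 libraries richest in microglia transcripts, which include Neurog2 replicate 4, it was 1.47 (adjusted p = 0.132). On the opposite strand, 867 exon bases of Dll1 are shared with A930024N18Rik, a transcript for which no values are given under this symbol. The library kit does not mark strand, so reads over these bases cannot be assigned by strand. How the authors' counting treated them is not stated in the methods.

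Dll3 lies on chr7:28293553-28302238, minus strand. Unlike the other Delta-like proteins it does not activate Notch on neighboring cells and is held largely inside the cell. Its control values in EGF+bFGF were 5.28, 5.45, 5.01, 4.81 and 5.23 and its Neurog2 values 6.74, 8.30 and 7.98. In bFGF control cells it had 5.30, 4.92 and 5.29, and in Neurog2 cells 7.66, 7.81, 7.38 and 9.22. Control libraries lay close together and Neurog2 libraries were spread over more than 1 log2 unit above them. The differences were 2.52 ± 0.54 in EGF+bFGF (SE, limma adjusted p = 0.0127) and 2.84 ± 0.57 in bFGF (adjusted p = 0.0189). The EGF+bFGF call was lost without Neurog2 replicate 2 (2.21, adjusted p = 0.118) or 3 (2.36, 0.111). The bFGF call was lost without control replicate 1 (2.91, 0.0908), 2 (2.72, 0.146) or 3 (2.90, 0.0539), without Neurog2 replicate 2 (2.91, 0.0514) or 4 (2.44, 0.101), and without the 3 libraries richest in microglia transcripts (2.44, 0.0812).

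Dll4, best known as the ligand of sprouting blood vessels, lies on chr2:119325784-119335962, plus strand. It was near the bottom of the detected range in control cells, at 2.91, 3.35, 3.39, 3.48 and 3.35 in EGF+bFGF and at 3.31, 3.46 and 3.46 in bFGF. In Neurog2 cells it reached 5.75, 6.66 and 6.79 in EGF+bFGF and 5.41, 6.03, 6.57 and 6.32 in bFGF. The gap between the groups exceeded the spread within either of them. Dll4 was the member with the greatest difference in EGF+bFGF, 3.11 ± 0.36 (SE, limma adjusted p = 1.34e-05), and had 2.67 ± 0.38 in bFGF (adjusted p = 0.000729). Both calls held with any single library left out, at differences of 2.91 to 3.43 and 2.51 to 2.89. Vascular markers were measured beside it. By the mean difference for the Neurog2 virus, 0 of the 6 endothelial markers tested were higher and 2 lower, Tek and Esam (median −0.39), and 0 of the 5 mural markers tested were higher and 3 lower, Acta2, Tagln and Myh11 (median −0.60), where 8.54% of all genes tested were higher and 6.74% lower (limma). Their part in the Dll4 values was not tested.

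Dll4 overlaps Gm14207, a transcript on the opposite strand (chr2:119321187-119326194) that has 214 exon bases in common with it. The rlog values of Gm14207 were 2.15 to 2.43 in the 16 libraries without the Neurog2 virus and 2.99 to 4.32 in the 13 with it, again without overlap. Because strand is not marked, reads over those bases cannot be assigned to Dll4 or Gm14207 by strand. How the authors' counting treated such reads is not stated in the methods.

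Mfng, manic fringe, lies on chr15:78755882-78773475, minus strand. Its values in EGF+bFGF were 3.16, 4.25, 3.33, 3.16 and 2.92 in control cells and 5.73, 6.57 and 6.27 in Neurog2 cells. In bFGF they were 3.38, 3.14 and 3.12 in control cells and 5.67, 5.07, 4.77 and 6.51 in Neurog2 cells. Every Neurog2 library was above every control library. Mfng was 2.83 ± 0.39 higher in EGF+bFGF (SE, limma adjusted p = 0.000189) and 2.29 ± 0.41 higher in bFGF (adjusted p = 0.00792). The bFGF call was lost without control replicate 2 (2.26, adjusted p = 0.0597) and kept without the 3 libraries richest in microglia transcripts (1.96, 0.0198). Within groups Mfng tended to be high where microglia markers were high (r = 0.54, rho = 0.49, permutation p = 0.0144 and 0.0272, adjusted p = 0.15 and 0.129, 29 libraries; 0.36 without the 2 farthest), a relation that did not pass the correction.

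The Jagged ligands, which bind the same receptors, did not pass the test. Jag1 (chr2:137081456-137116644, minus strand) was abundant, with 8.48, 9.41, 9.10, 8.83 and 8.43 in EGF+bFGF control cells and 9.19, 7.96 and 8.15 in Neurog2 cells. In bFGF it had 8.70, 8.58 and 9.00 in control cells and 7.96, 8.22, 8.12 and 8.69 in Neurog2 cells. The groups overlapped in both cultures. The differences were −0.42 ± 0.26 in EGF+bFGF (SE, limma adjusted p = 0.558) and −0.51 ± 0.27 in bFGF (adjusted p = 0.665), with 95% intervals of −0.96 to 0.12 and −1.08 to 0.05. Jag2 (chr12:112907819-112929776, minus strand) was weakly detected, between 2.65 and 4.07 in all 29 libraries, near the control levels of Dll4 and Mfng, and its 95% intervals for Neurog2 against control were −0.32 to 0.77 and −0.74 to 0.40.

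The other fringe genes were abundant in all groups. Rfng, radical fringe (chr11:120780746-120784207, minus strand), had 8.51, 8.65, 8.08, 8.30 and 8.48 in EGF+bFGF control cells and 8.75, 8.82 and 8.85 in Neurog2 cells. In bFGF it had 8.35, 8.60 and 8.51 in control cells and 8.94, 8.76, 8.61 and 8.75 in Neurog2 cells. The groups did not overlap, yet they were near each other and the differences of 0.41 ± 0.13 and 0.28 ± 0.14 did not pass the test (limma adjusted p = 0.14 and 0.612). With libraries weighted by their scatter as estimated from these same values, Rfng passed in EGF+bFGF (0.38, limma adjusted p = 0.00165). These weights ran from 0.26 to 7.42, and their estimate stopped before it converged.

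Lfng, lunatic fringe (chr5:140607320-140615545, plus strand), had 9.71, 8.71, 8.41, 8.64 and 9.48 in EGF+bFGF control cells and 8.32, 8.83 and 8.34 in Neurog2 cells. In bFGF it had 8.66, 7.87 and 7.73 in control cells and 7.45, 7.74, 7.52 and 8.92 in Neurog2 cells. The groups overlapped, and the differences were −0.49 ± 0.41 and −0.18 ± 0.43 (SE, limma adjusted p = 0.691 and 0.945). With weighted libraries the EGF+bFGF difference was −0.89 and passed (adjusted p = 0.0312).

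Set against each other per kilobase of exon, the members fell into a rough order in EGF+bFGF control cells. On the rlog scale minus log2 of the exon length in kilobases, the level was 7.67 for Lfng, 7.09 for Rfng, 6.31 for Jag1, 4.29 for Dll1, 3.65 for Dll3, 1.86 for Mfng, 1.35 for Dll4 and 0.38 for Jag2. In bFGF control cells Rfng (7.17) came before Lfng (6.76). In EGF+bFGF Neurog2 cells Dll1 (6.45) and Dll3 (6.16) stood level with or above Jag1 (5.89), while Mfng (4.69) and Dll4 (4.45) remained below it. The SD within groups, pooled over all 8, was 0.60 for Lfng, 0.17 for Rfng, 0.37 for Jag1, 0.48 for Dll1, 0.78 for Dll3, 0.56 for Mfng and 0.51 for Dll4. The neighbors Lfng and Rfng, Dll1 and Dll3, and Mfng and Dll4 were thus no farther apart than about their spread.

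**Figure D2:**
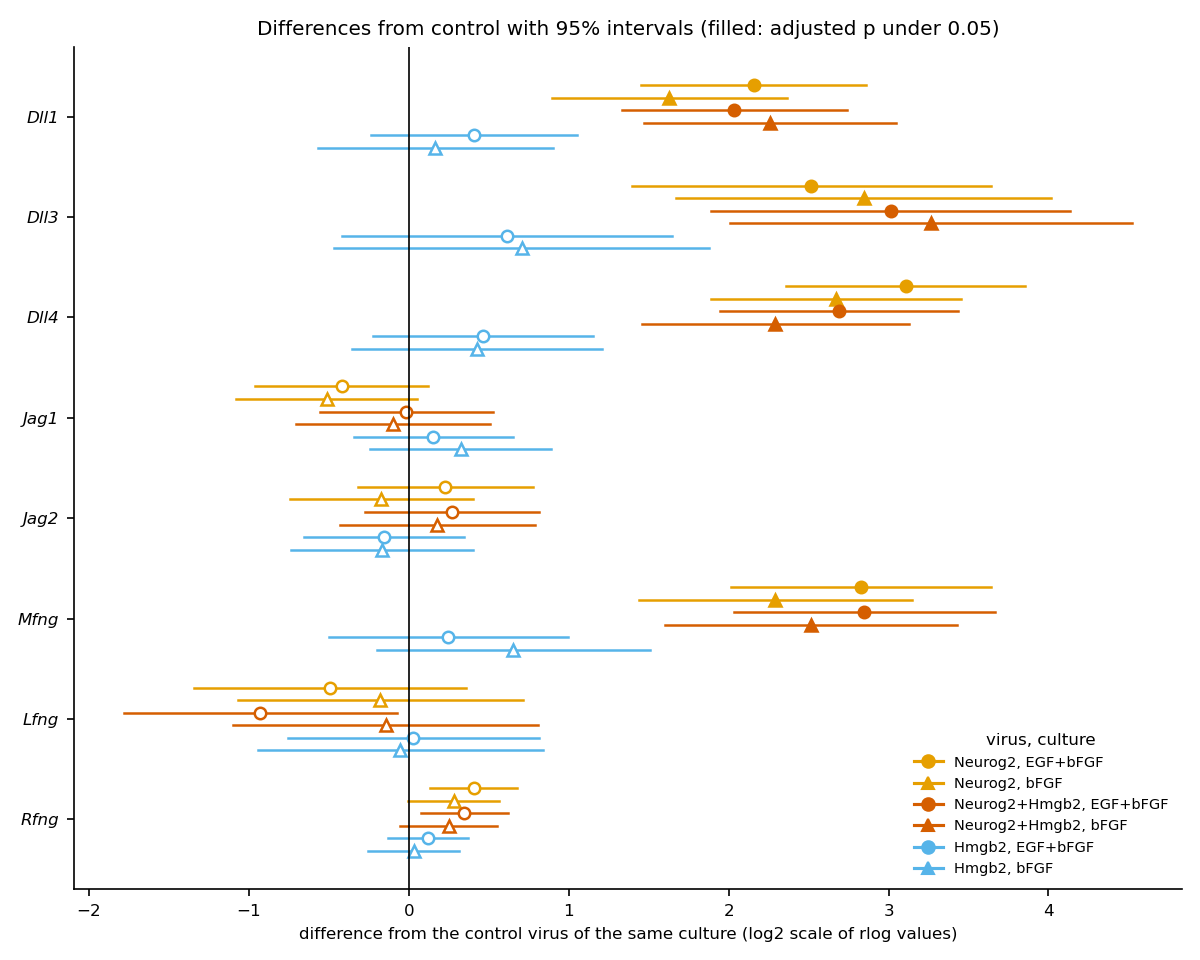
Difference from the control virus of the same culture (x axis, log2 scale of rlog values) with its 95% interval for each gene, virus and culture; filled symbols have an adjusted p under 0.05 (limma). Dll1, Dll3, Dll4 and Mfng are filled for Neurog2 and for Neurog2+Hmgb2 in both cultures, and no gene is filled for Hmgb2 alone.

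Cells that received both viruses showed the same 4 members higher than the control virus: 4 of 8 higher and 0 lower in EGF+bFGF, where 1.46% of genes tested were higher and 0.522% lower, and 4 and 0 in bFGF, where 1.03% were higher and 0.452% lower. Dll1 had 8.43, 8.14 and 8.65 in Neurog2+Hmgb2 cells in EGF+bFGF and 8.27, 8.35 and 8.47 in bFGF. Dll3 ranged widely, at 7.74, 7.13 and 9.64 in EGF+bFGF and at 6.98, 9.56 and 8.76 in bFGF. Every one of these libraries was above every control library of its culture, as held for 4.46% of genes tested in EGF+bFGF and 11.4% in bFGF. The differences were 2.04 ± 0.34 and 2.26 ± 0.38 for Dll1 (SE, limma adjusted p = 0.00129 and 0.00274, EGF+bFGF first) and 3.01 ± 0.54 and 3.26 ± 0.61 for Dll3 (0.00237 and 0.00553). The Dll3 calls were lost without Neurog2+Hmgb2 replicate 3 in EGF+bFGF (2.28, adjusted p = 0.0625) and without replicate 2 in bFGF (2.70, 0.056).

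Dll4 had 6.56, 4.90 and 6.49 in Neurog2+Hmgb2 cells in EGF+bFGF and 4.88, 6.60 and 5.62 in bFGF. The lowest of each group, replicate 2 in EGF+bFGF and replicate 1 in bFGF, were also 2 of the 7 libraries with the least astrocyte transcripts. Mfng had 6.06, 5.74 and 6.84 in EGF+bFGF and 4.95, 6.78 and 5.45 in bFGF, and none of these values reached down to a control library. The differences from control were 2.69 ± 0.36 and 2.29 ± 0.40 for Dll4 (SE, limma adjusted p = 0.000137 and 0.00341) and 2.85 ± 0.39 and 2.52 ± 0.44 for Mfng (0.00019 and 0.00321). With only the bFGF control and Neurog2+Hmgb2 libraries in the fit, 0 of the 4 members passed, with adjusted p-values of 0.0889 for Dll1, 0.113 for Dll3, 0.113 for Dll4 and 0.113 for Mfng at the same differences.

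The question of whether Hmgb2 adds to Neurog2 is addressed by Neurog2+Hmgb2 against Neurog2 cells, where 0 of 8 members passed in either culture (limma), where 0.00636% of genes tested were higher in each. At an unadjusted p under 0.05 there were also 0 of 8, against 3.72% of genes tested in EGF+bFGF and 2.20% in bFGF. In bFGF the 3 Neurog2+Hmgb2 libraries lay above the 4 Neurog2 libraries for Dll1, at 8.27 to 8.47 against 7.13 to 8.21. This difference was 0.63 with a 95% interval of −0.10 to 1.36 (limma adjusted p = 0.998), and 1.52% of genes tested were without overlap and higher there. In EGF+bFGF the Dll1 difference was −0.12, with an interval of −0.90 to 0.67. The intervals of Dll3 were −0.76 to 1.75 in EGF+bFGF and −0.75 to 1.60 in bFGF, those of Dll4 −1.25 to 0.42 and −1.16 to 0.40, and those of Mfng −0.89 to 0.93 and −0.63 to 1.08. These intervals hold 0, and all but those of Dll1 and Mfng in EGF+bFGF also hold a difference of 1 log2 unit in 1 direction.

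Hmgb2 alone was compared with the control virus in each culture. None of the 8 members passed the test (limma) in either culture, where 0.0127% of genes tested were higher in EGF+bFGF and 0.00636% in bFGF. These shares are 2 genes in EGF+bFGF, Hmgb2 and Neurog2, and 1 gene in bFGF, Hmgb2. No member had an unadjusted p under 0.05, against 0.782% of genes tested in EGF+bFGF and 0.414% in bFGF. In bFGF, Dll4 had 3.61, 3.77, 4.30 and 3.67 in Hmgb2 cells and Mfng had 3.56, 3.97, 4.49 and 3.45, and in both genes all 4 were above the highest control library, at 3.46 and 3.38. In that comparison 1.09% of genes tested were without overlap and higher. The differences were 0.43 ± 0.38 for Dll4 and 0.65 ± 0.41 for Mfng (limma adjusted p = 1 for both). Dll3 had 5.86, 5.09, 5.54 and 6.59 in Hmgb2 cells in EGF+bFGF and 5.18, 5.56, 6.46 and 6.31 in bFGF, of which 3 of 4 in each culture were above the highest control. The share of genes tested with 3 of 4 above the highest control was not computed. These Hmgb2 libraries are those with the intermediate Neurog2 values given above, and the part of Neurog2 in these differences was not tested.

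**Figure D3:**
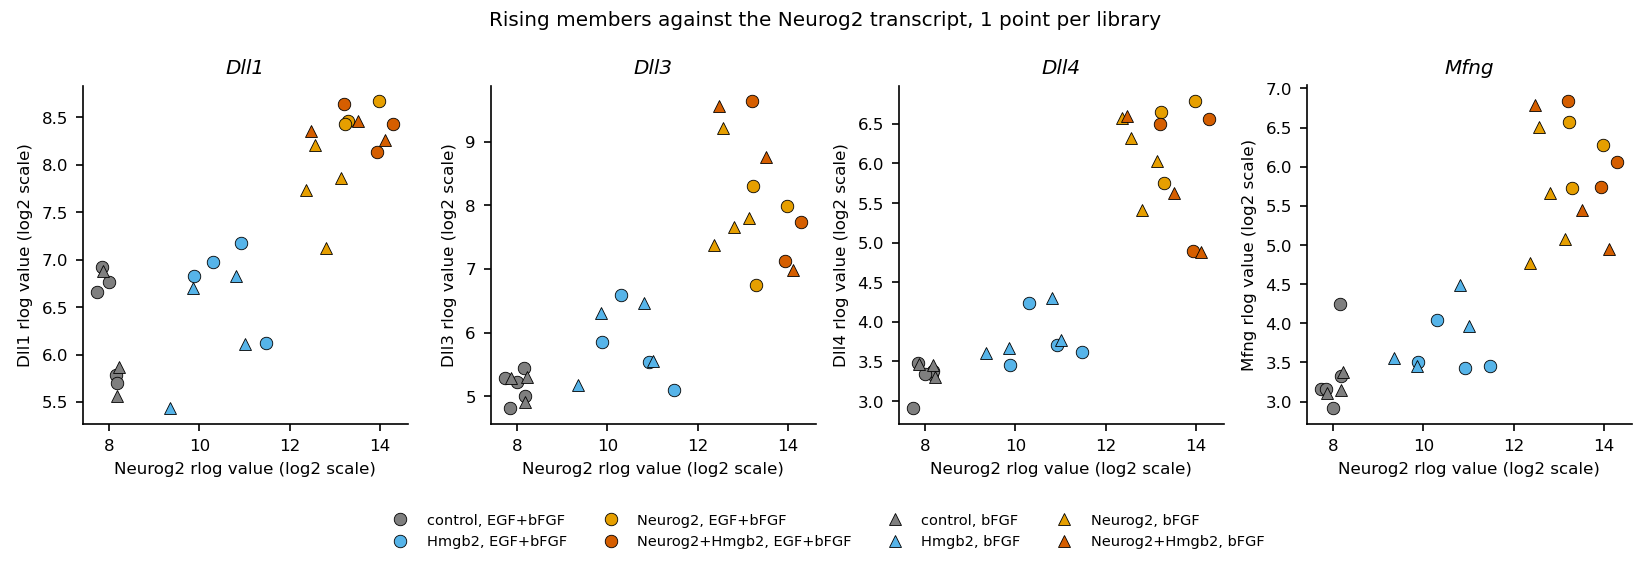
Rlog value of Dll1, Dll3, Dll4 and Mfng (y axes, log2 scale) against the rlog value of Neurog2 (x axis, log2 scale) in each of 29 libraries; colors give the virus, circles EGF+bFGF and triangles bFGF. The Hmgb2 libraries lie at Neurog2 values of 9.35 to 11.47, between the control libraries and the libraries that received the Neurog2 virus.

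Neurog2+Hmgb2 against Hmgb2 cells again gave Dll1, Dll3, Dll4 and Mfng as higher, 4 of 8 in each culture and 0 lower (limma), where 0.751% of genes tested were higher and 0.165% lower in EGF+bFGF and 0.693% and 0.216% in bFGF. The differences in EGF+bFGF were 1.63 ± 0.36 for Dll1, 2.40 ± 0.57 for Dll3, 2.23 ± 0.38 for Dll4 and 2.60 ± 0.41 for Mfng. In bFGF they were 2.09 ± 0.36, 2.56 ± 0.57, 1.86 ± 0.38 and 1.86 ± 0.41. These calls rested on few libraries. With only the Hmgb2 and Neurog2+Hmgb2 libraries in the fit, 0 members passed in either culture. Without the filter Dll3 did not pass in either culture and Mfng did not in bFGF (limma adjusted p = 0.0781, 0.0597 and 0.0551), and with a replicate block within each culture Dll3 did not pass in EGF+bFGF (0.0523). In EGF+bFGF, 1 of the 4 passed without Neurog2+Hmgb2 replicate 3, and 2 passed without Neurog2+Hmgb2 replicate 1, Hmgb2 replicate 1 or Hmgb2 replicate 2. In bFGF, 1 passed without Hmgb2 replicate 1, Neurog2+Hmgb2 replicate 2 or Neurog2+Hmgb2 replicate 3.

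Averaged over both cultures and both Hmgb2 states, the Neurog2 virus was compared in 13 libraries with and 16 without it. By this mean of 4 differences 5 of the 8 members were higher and 0 lower (limma), where 8.54% of genes tested were higher and 6.74% lower. Dll3 was higher by 2.58 ± 0.28, Dll4 by 2.47 ± 0.19, Mfng by 2.40 ± 0.20 and Dll1 by 1.88 ± 0.18 (SE, adjusted p = 8.99e-07, 2.79e-09, 2.12e-08 and 8.54e-08). The fifth was Rfng at 0.28 ± 0.07 (adjusted p = 0.00593), a small difference that remained under a fold of 2. All 5 were still called with any single library left out. They were also called without the 3 libraries richest in microglia transcripts, with Dll1 at 1.83, Dll3 at 2.63, Dll4 at 2.59, Mfng at 2.43 and Rfng at 0.31, and without the 7 with the least astrocyte transcripts, with Dll1 at 1.74, Dll3 at 2.82, Dll4 at 2.74, Mfng at 2.57 and Rfng at 0.29.

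For Dll3 the 13 libraries with the virus ranged from 6.74 to 9.64, with a median of 7.81, and the 16 without it from 4.81 to 6.59, with a median of 5.30. For Dll4 they ranged from 4.88 to 6.79 (median 6.32) against 2.91 to 4.30 (3.47), and for Mfng from 4.77 to 6.84 (5.74) against 2.92 to 4.49 (3.44). These 3 genes had no overlap, and 0.286% of genes tested were without overlap and higher in this split. For Dll1, 12 of the 13 were above the highest library without the virus (7.17), the exception being bFGF Neurog2 replicate 1 at 7.13.

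Jag1 was the member with the opposite sign nearest to the threshold. Its mean difference was −0.38 ± 0.14 (SE, limma adjusted p = 0.0588), with 7.96 to 9.19 (median 8.43) in the 13 libraries with the Neurog2 virus and 8.43 to 9.51 (median 8.99) in the 16 without it. The ranges overlapped over most of their length. Jag1 thus did not pass with all libraries, and this depended on single libraries. Without EGF+bFGF Neurog2 replicate 1, the highest Jag1 library of its group, Jag1 passed at −0.48 (limma adjusted p = 0.00939). It also passed, with adjusted p-values of 0.039 to 0.0495, without any 1 of EGF+bFGF control replicates 1 and 5, EGF+bFGF Neurog2+Hmgb2 replicate 1, EGF+bFGF Hmgb2 replicate 4, bFGF Hmgb2 replicate 4 and bFGF Neurog2 replicate 4. Lfng had −0.43 ± 0.21 (adjusted p = 0.182; −0.77 and 0.00141 with weighted libraries) and Jag2 0.21 ± 0.14 (0.338).

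The same average for the Hmgb2 virus gave 0 of 8 members at an adjusted p under 0.05 (limma), where 0.0127% of genes tested were higher. Jag1 was the 1 member with an unadjusted p under 0.05, as 5.55% of genes tested had, with a difference of 0.32 ± 0.14 (adjusted p = 0.779). Dll3 had 0.56 ± 0.28 (adjusted p = 0.779) and Dll4 had 0.02 ± 0.19 (0.977).

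The growth factors were compared within each virus. None of the members passed in control, Neurog2, Hmgb2 or Neurog2+Hmgb2 cells (limma), nor did more than 0.00636% of genes tested in either direction in any of these comparisons. The difference of Lfng, bFGF minus EGF+bFGF, was −0.90 in control, −0.59 in Neurog2, −0.98 in Hmgb2 and −0.12 in Neurog2+Hmgb2 cells, and its unadjusted p was under 0.05 in control and Hmgb2 cells, as it was for 6.42% and 4.90% of genes tested. In Hmgb2 cells it had 9.62, 7.94, 8.71 and 9.82 in EGF+bFGF and 7.60, 8.51, 7.49 and 8.54 in bFGF, and in Neurog2+Hmgb2 cells 8.51, 7.97 and 7.71 against 7.66, 8.52 and 7.65, with overlap in every case. Its mean difference over the 4 viruses was −0.65 ± 0.21 (SE, limma adjusted p = 0.129), where 0.757% of genes tested were higher and 0.426% lower. All 5 fibroblast markers were on average higher in bFGF in control, Neurog2 and Hmgb2 cells, with median differences of 1.81, 1.62 and 1.85. In Neurog2+Hmgb2 cells 2 of 5 were higher, with a median of −0.15. None of the 5 passed in any of these comparisons (limma). By the mean culture difference, Dcn of the fibroblast list and Pdgfra of the oligodendrocyte precursor list passed as higher (1.84 and 1.42, limma adjusted p = 0.0188 and 0.0417). No other marker of these lists passed. By that difference 5 of 5 fibroblast markers and 4 of 6 precursor markers were on average higher. The part of these markers in the culture differences of Lfng and the other members was not tested.

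Dll1 had a mean culture difference of −0.40 ± 0.18 (limma adjusted p = 0.277). Its greatest part was in Neurog2 cells, where the 4 bFGF libraries lay below the 3 EGF+bFGF libraries by 0.79 on average, from 8.52 to 7.73 (limma adjusted p = 0.673), and 4.99% of genes tested were without overlap and lower there. The Neurog2 transcript itself was also without overlap and lower in these bFGF libraries, at 12.36 to 13.13 against 13.22 to 13.98, and its part in the Dll1 value was not tested. The response to Neurog2 did not differ detectably between the cultures: as interaction terms, 0 of 8 members passed for Neurog2, Hmgb2 or Neurog2+Hmgb2 (limma), and 0 of all genes tested passed. None of the 8 had an unadjusted p under 0.05, against 1.72%, 0.363% and 1.55% of genes tested. The interaction for Neurog2 was −0.53 for Dll1 (95% interval −1.54 to 0.49), 0.33 for Dll3 (−1.30 to 1.95), −0.44 for Dll4 (−1.52 to 0.65) and −0.54 for Mfng (−1.72 to 0.64), intervals wide enough to hold a difference of 1 log2 unit.

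Other genes of the Notch pathway were taken from a list of 34, all of which were tested. By the mean of 4 differences for the Neurog2 virus, 5 were higher and 2 lower (limma), where 8.54% of all genes tested were higher and 6.74% lower, and the median difference was 0.02 against 0.01 over all genes tested. Heyl, a target of Notch signaling, was higher by 2.44 ± 0.32 and Hes5, another target, by 1.75 ± 0.44 (adjusted p = 9.81e-06 and 0.00842). The other 4 tested targets, Hes1, Hey1, Hey2 and Nrarp, did not pass, with −0.15 for Hes1. Dner, a ligand-like protein of neurons, was higher by 0.95 ± 0.21, and Mib1, the ubiquitin ligase that ligands need for their uptake, by 0.34 ± 0.06 (adjusted p = 0.00315 and 0.000393). Dlk2, a Delta-like protein without the domain that binds Notch in the usual way, was lower, with a difference of −0.91 ± 0.18, and so was Numb, an inhibitor of Notch, with −0.34 ± 0.06 (0.00134 and 0.000624). None of the 4 receptors passed, with differences of −0.50 to 0.01.

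In the single comparisons of Neurog2 or Neurog2+Hmgb2 with control, at most 1 of the 34 passed. It was Heyl, at 3.45 in EGF+bFGF (limma adjusted p = 0.00235) and 3.40 in bFGF (0.011) with both viruses. With Neurog2 alone Heyl had 2.14 (0.0885) and 2.32 (0.156), and the difference between these responses was not tested beyond the comparison of Neurog2+Hmgb2 with Neurog2, in which 0 of the 34 passed in either culture.

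Genes outside the set with the most similar profiles were named as the 3 with the highest Pearson correlation over the 29 libraries, which share groups and the Neurog2 contrast, so high values are common. Dll1 was followed most closely by Tbc1d9 (0.95), Btbd17 (0.94) and Hes6 (0.93), and Dll3 by Rbfox3 (0.97), Elavl2 (0.97) and Miat (0.97), of which Rbfox3 and Elavl2 encode RNA-binding proteins of neurons. For Dll4 they were Ackr1 (0.98), Gm14207 (0.97), which overlaps it, and Tmem114 (0.95), and for Mfng they were Trp53i11 (0.95), Hpca (0.94) and Prmt8 (0.94). Jag1 had Lancl3 (0.85), Slc39a6 (0.83) and Ppp2r1b (0.79), and Jag2 had Mgat5b (0.78), Ap5z1 (0.77) and Hs3st1 (0.76). Lfng had Metrn (0.92), Clptm1 (0.90) and Kctd17 (0.90), and Rfng had Lrrc45 (0.85), whose gene lies 59618 bases away, Zfp358 (0.83) and Usf1 (0.83).

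Libraries of the same group also varied together for some members. After subtracting group means, Dll3 and Mfng were correlated over the 29 libraries, with r = 0.79 and rho = 0.70 (permutation within groups, p = 3e-05 and 0.00058, adjusted p = 0.00156 and 0.0302 over 52 relations). Without the 2 libraries farthest from the median of Dll3, r was 0.75, and it was 0.77 over the 15 libraries in EGF+bFGF and 0.81 over the 14 in bFGF. It was the 1 pair of the 28 pairs of members to pass by both measures, and 22 of the 28 had a positive r. Among them were Dll3 and Dll4, with r = 0.67 and rho = 0.55 (permutation p = 0.0182 and 0.0271), which did not pass the correction.

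In the 13 libraries with the Neurog2 virus, the level of Neurog2 within groups was not detectably related to any member by an exact permutation test. The strongest values were negative, for Dll3 (r = −0.60, rho = −0.48, exact permutation p = 0.118 and 0.202, adjusted p = 0.362 and 0.539) and Mfng (r = −0.60, rho = −0.48, 0.0966 and 0.204, adjusted p = 0.314 and 0.539). Without the 2 farthest libraries these were −0.32 and −0.28. Because 7 libraries stood apart in astrocyte transcripts, the relation of the members to the astrocyte marker mean was computed within the other 22, where none passed. There Dll1 had r = 0.13 and rho = −0.02 (permutation p = 0.697 and 0.949, adjusted p = 0.771 and 0.97), and Lfng had r = 0.50 and rho = 0.61 (permutation p = 0.0488 and 0.0144, adjusted p = 0.211 and 0.125; r = 0.44 without the 2 farthest). In each of the 7 libraries left out here, Dll1 lay below its group mean, with deviations of −0.84 to −0.10. Lfng also lay below its group mean in all 7, with deviations of −1.08 to −0.09. The share of all genes tested that did so was not computed. The relation of Dll1 and Lfng to these markers over all 29 libraries was not tested.

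**Figure D4:**
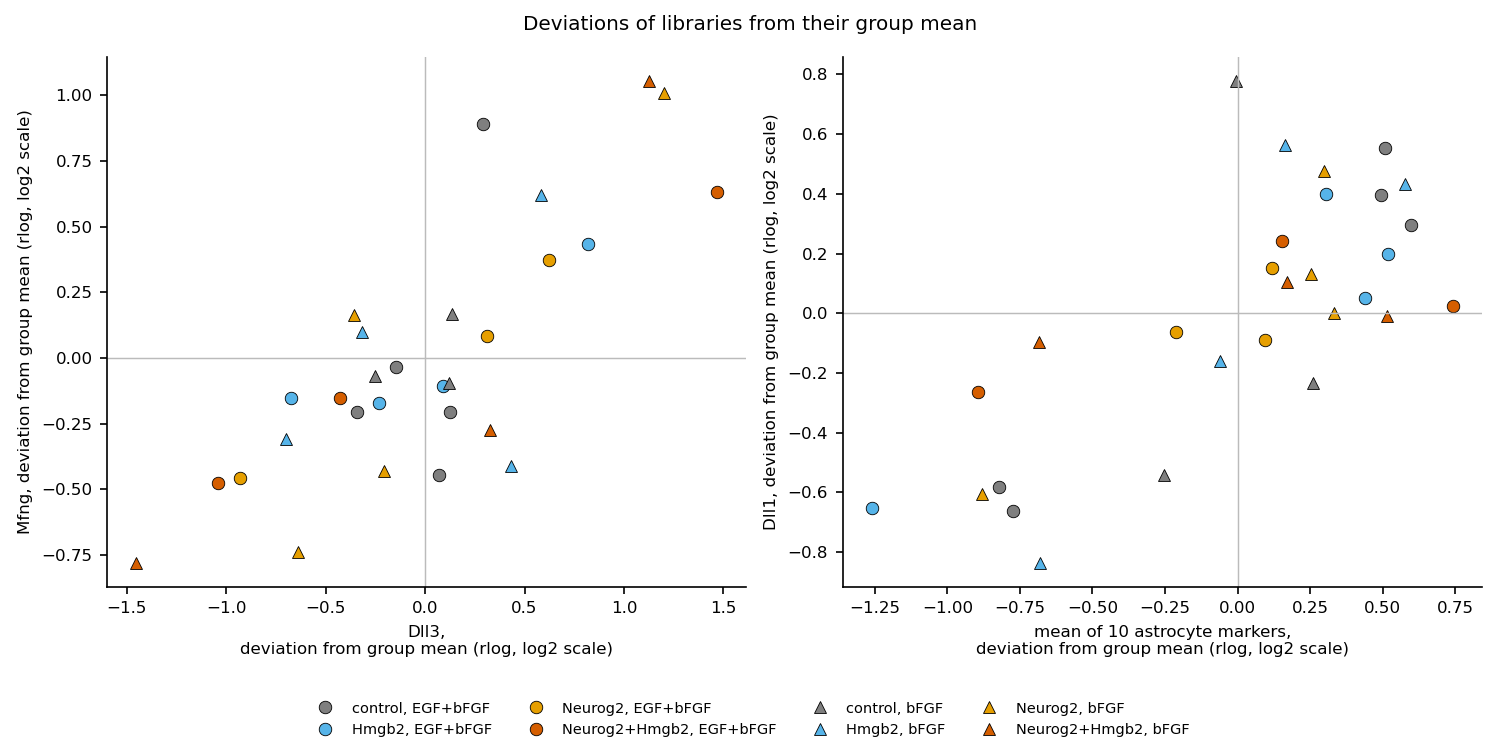
Deviation of each library from its group mean (rlog, log2 scale): Mfng (y) against Dll3 (x) at left, r = 0.79 over 29 libraries, and Dll1 (y) against the mean of 10 astrocyte markers (x) at right. At right 7 libraries lie apart on the left side, all with Dll1 below its group mean. Lfng, not drawn, was also below its group mean in these 7. Within the other 22 the relation of Dll1 to these markers was r = 0.13.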

How the data were processed

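RNA of sorted cells was made into cDNA with a SMART-Seq kit, and the authors mapped reads to mm10 (GRCm38.p6) with STAR, with HTSeq 0.9.1 for the counting over GENCODE genes. The deposited values are rlog values of DESeq2 (1.36.0 in the deposited notes, an earlier version in the methods), on a log2 scale, which the authors adjusted for library size and which pulls genes of low count toward their mean, so a difference of a weak gene is smaller than its log2 ratio of counts. They span −2.35 to 17.20. The raw counts are not analysed here, which leaves the depth of each library, and hence the precision of its values, unknown. All columns were mapped to a group by the labels, and 0 were left unmapped.

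Genes with a mean rlog of at least 1 were tested (9520 left out). limma 3.58.1 in R 4.3.3 fitted 8 group means over 29 libraries (21 residual degrees of freedom, variance trend on the mean), and p-values were adjusted over all genes tested by the method of Benjamini and Hochberg in each of 20 comparisons. Comparisons of Neurog2, Hmgb2 and Neurog2+Hmgb2 with control share their control libraries. Relations between libraries were tested by permuting within groups (100000 draws, or all 5184 orders for the libraries with the Neurog2 virus). Nothing in the labels says that equal replicate numbers mark paired libraries, and the main fit has no replicate block.

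The members and the gene lists were chosen with earlier results of these data known. Named genes were all 8 members, up to 6 called genes of the Notch pathway list by size of difference, and the 3 most similar genes per member. Coordinates are from GENCODE M21 on GRCm38, another release than the authors'. Alternatives were no filter or a filter at 4, median centring, quantile normalization, array weights, a robust trend, replicate blocks, only the groups compared, a fold above 2 and each library left out. The 3 libraries richest in microglia and the 7 poorest in astrocyte transcripts were left out as alternatives chosen after seeing the data.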

Additional observations from a re-analysis of the deposited data

Results flagged for a closer look

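Single libraries far from the rest were sought for 1 gene at a time in each group of 4 or 5 libraries. Of these 40 checks, 3 found one, and chance alone marks about 1 in 20. The checks of different genes use the same libraries. Dll4 was lowest in EGF+bFGF control replicate 1, at 2.91 with the next library at 3.35, a gap of 0.764 of the range of the group. Mfng was highest in EGF+bFGF Hmgb2 replicate 4, at 4.04 with the next at 3.50, a gap of 0.891 of the range. The Hmgb2 transcript was lowest in EGF+bFGF control replicate 4, at 9.57 with the next at 10.10, a gap of 0.733 of the range.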

How the results depend on the processing

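No difference of a member that was called changed sign under any alternative, and over all members, comparisons and alternatives 6449 values kept their side of the threshold, 67 lost it and 24 gained it. In Neurog2 against control in bFGF, the 4 members called became 2 without the filter, 1 with only the groups compared and 2 without the 3 libraries richest in microglia transcripts. With only the groups compared, the count fell from 4 to 0 in Neurog2+Hmgb2 against Hmgb2 in both cultures and against control in bFGF, where the smaller fit leaves fewer residual degrees of freedom, and without the filter it was 2 in Neurog2+Hmgb2 against Hmgb2 in bFGF. Array weights called 1 member in Neurog2+Hmgb2 against Neurog2 in bFGF (Jag2, 0.68), 1 in bFGF against EGF+bFGF Neurog2 cells (Mfng, −1.02) and 2 in the mean culture difference (Dll1, −0.53, and Lfng, −0.83). They also called Lfng for Neurog2+Hmgb2 against control (−1.40) and against Hmgb2 (−1.43) in EGF+bFGF, and Rfng for Neurog2+Hmgb2 against control in EGF+bFGF (0.34) and bFGF (0.39) and against Hmgb2 in bFGF (0.32), where Jag2 (0.63) was also called. The weights are an estimate that stopped before it converged, and the cause of these changes was not tested.

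Whether same-numbered libraries are paired was not settled. Within a culture, the deviations of same-numbered libraries of different groups had median correlations of 0.22 (EGF+bFGF) and 0.23 (bFGF), above 0.1 in 13 and 12 of 19 pairs each and down to −0.61 and −0.50. Those of different-numbered libraries had medians of −0.01 and −0.13, above 0.1 in 23 of 64 and 18 of 54 pairs. With replicate blocks within each culture, Neurog2 against control in bFGF gave 2 members and Neurog2+Hmgb2 against Hmgb2 in EGF+bFGF gave 3, and the mean Neurog2 difference gave 6 with either block, the sixth being Jag1, which also passed with median centring (−0.41) and array weights (−0.36). The blocks moved no other count of members.

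With each library left out in turn, the count was 3 to 4 for Neurog2 against control in EGF+bFGF and 1 to 4 in bFGF, 3 to 4 for Neurog2+Hmgb2 against control in both cultures, 1 to 4 against Hmgb2 in both and 5 to 6 for the mean Neurog2 difference. All other comparisons stayed at 0. Jag2 was not tested under the filter at 4.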
